A study of Rattus norvegicus with 8 samples.

Results

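Serum- and glucocorticoid-regulated kinases, the genes that act with them on sodium transport, and the Tsc22 domain family were followed in the hippocampus of adrenalectomized (ADX) rats after vehicle or corticosterone (CORT). The set lists 9 genes, of which 8 had a value, namely Sgk1, Sgk2, Sgk3, Nedd4l, Cnksr3, Tsc22d1, Tsc22d2 and Tsc22d3. Tsc22d4 was not analysed here. Of the 8 genes, 6 were measured as 2 transcripts and 2 as 1, so 14 of the 16266 transcripts in the deposited table, and 8 of its 13272 gene symbols, belong to the set. These genes were chosen from earlier results of the same contrast, in which Sgk1, Tsc22d3 and Cnksr3 were higher with CORT, so that the values of the set are given as a description without a test.

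Whole hippocampi came from 8 rats of 3 to 4 months, labelled Sprague-Dawley, whereas the methods of the study name another strain and a younger age. All 8 had lost both adrenal glands, the source of corticosterone, and had been kept on corticosterone in the drinking fluid until it was withdrawn ahead of the experiment. A 30 min infusion through the jugular vein was started at zeitgeber time (ZT) 2, with 0.45% saline in the 4 vehicle rats and with corticosterone-2-hydroxypropyl-β-cyclodextrin at 0.75 mg/mL in the 4 CORT rats, and the tissue was taken 2 h after that start. The comparison asks which hippocampal genes respond to the infusion of the hormone within that time. By the labels only the CORT rats received cyclodextrin, so hormone and carrier cannot be told apart. Expression is given as FPKM (fragments per kilobase of transcript, scaled for library size, here with geometric normalization), for which the authors deposited 1 value per group and transcript. Because no value of a single rat is used, the spread between rats is unknown, no interval can be given for any FPKM or fold change below, and no order of levels can be tested.

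Sgk kinases belong to the same kinase group as Akt and are switched on by PDK1 and by mTOR complex 2. In epithelia, Sgk1 phosphorylates the ubiquitin ligase Nedd4l (also called Nedd4-2), which then binds 14-3-3 proteins and removes fewer sodium channels from the membrane, and Cnksr3 is a scaffold that brings these proteins together. Tsc22d3, widely known as GILZ, is a leucine zipper protein that binds NF-κB and AP-1 and is a classic glucocorticoid target, and its relatives share the Tsc22 domain. Sgk1 and Tsc22d3 are long-known corticosteroid-responsive genes in brain, where Sgk1 is induced in oligodendrocytes among other cells.

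To show the sequence around the starts of the 3 genes with higher transcripts, promoters were taken from RefSeq (GRCr8 assembly), which held 11 windows for 6 of the 9 listed genes. Each window reaches from 250 bases before a transcription start to 50 bases after it, and the 250 bases before the start are printed for 4 of them, 5′ to 3′ on the strand of the gene. Capitals mark TATAAA, the core of a TATA box, and CACGTG, the E-box to which clock proteins can bind. The windows of Sgk1 lie at chr1:24807232-24807481 and chr1:24804832-24805081, that of Tsc22d3 at chrX:109010035-109010284 and that of Cnksr3 at chr1:45996922-45997171, all on the minus strand.
Sgk1, window 1: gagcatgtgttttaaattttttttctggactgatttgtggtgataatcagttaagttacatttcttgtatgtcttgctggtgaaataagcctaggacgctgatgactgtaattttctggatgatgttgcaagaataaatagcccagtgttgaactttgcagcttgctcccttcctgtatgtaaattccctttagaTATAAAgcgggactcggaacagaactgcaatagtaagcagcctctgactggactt
Sgk1, window 3: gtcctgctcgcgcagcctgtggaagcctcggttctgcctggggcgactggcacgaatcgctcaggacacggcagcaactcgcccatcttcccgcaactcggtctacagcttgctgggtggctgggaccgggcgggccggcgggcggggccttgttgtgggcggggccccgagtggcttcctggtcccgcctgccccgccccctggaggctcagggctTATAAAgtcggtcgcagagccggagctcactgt
Tsc22d3, window 3: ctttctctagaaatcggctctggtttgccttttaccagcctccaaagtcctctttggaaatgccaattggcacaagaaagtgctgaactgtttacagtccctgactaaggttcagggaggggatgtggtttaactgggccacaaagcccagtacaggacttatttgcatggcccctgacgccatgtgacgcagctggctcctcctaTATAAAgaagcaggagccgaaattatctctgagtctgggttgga
Cnksr3, window 1: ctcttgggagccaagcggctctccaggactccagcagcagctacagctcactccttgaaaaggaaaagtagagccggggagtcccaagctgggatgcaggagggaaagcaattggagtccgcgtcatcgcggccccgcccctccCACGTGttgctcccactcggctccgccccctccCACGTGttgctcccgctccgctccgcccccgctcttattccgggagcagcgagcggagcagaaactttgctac

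TATAAA was found 33 to 28 bases before the start in window 3 of Sgk1, 55 to 50 bases before it in window 1 of Sgk1, and 44 to 39 bases before it in window 3 of Tsc22d3. Of all 33469 promoter windows, 14.2% hold TATAAA on either strand, and 2.26% hold it on the strand of the gene within the 50 bases before the start. The match in window 1 of Sgk1 begins before those 50 bases and is not of that kind. Cnksr3 holds CACGTG at 2 positions, 106 to 101 and 73 to 68 bases before the start. The bases directly before and after it are the same at both, so the 2 positions lie in a repeat. CACGTG, which reads the same on both strands, is present in 6.42% of all windows and at 2 or more positions in 0.52%. Both strands were searched, no other window of these genes held either motif, and both motifs were picked after the sequences had been read. The motif planned for the search was the glucocorticoid response element, AGAACA and TGTTCT separated by 3 bases. With up to 2 mismatches in its 12 set letters it was in 0 of the 11 windows of these genes, against 1.87% of all windows. Its arms alone, AGAACA or TGTTCT, were also in 0 of the 11, against 20.7% of all windows. These counts describe windows of 300 bases and say nothing of elements outside them.

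Sgk1, Cnksr3 and Tsc22d3 were higher with CORT by at least 1.5-fold, the size taken here to call a transcript, Sgk1 and Cnksr3 with 1 of 2 transcripts each and Tsc22d3 with both. Sgk2 was lower by more than that, and the other 9 transcripts, among them all of Sgk3, Nedd4l, Tsc22d1 and Tsc22d2, stayed within 1.5-fold. The count is thus 4 of 14 transcripts higher and 1 of 14 lower, whereas of all 16266 transcripts 4.21% were higher and 4.91% lower by that size. Because the genes were picked from this contrast, nothing is read from that difference. The median log2 fold change was 0.37 over the 14 transcripts and 0.02 over all transcripts. Of the transcripts nearest to the 1.5-fold limit, the less abundant one of Tsc22d3 lay just above it at 1.65-fold and that of Cnksr3 just below it at 1.47-fold.

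**Figure D1:**
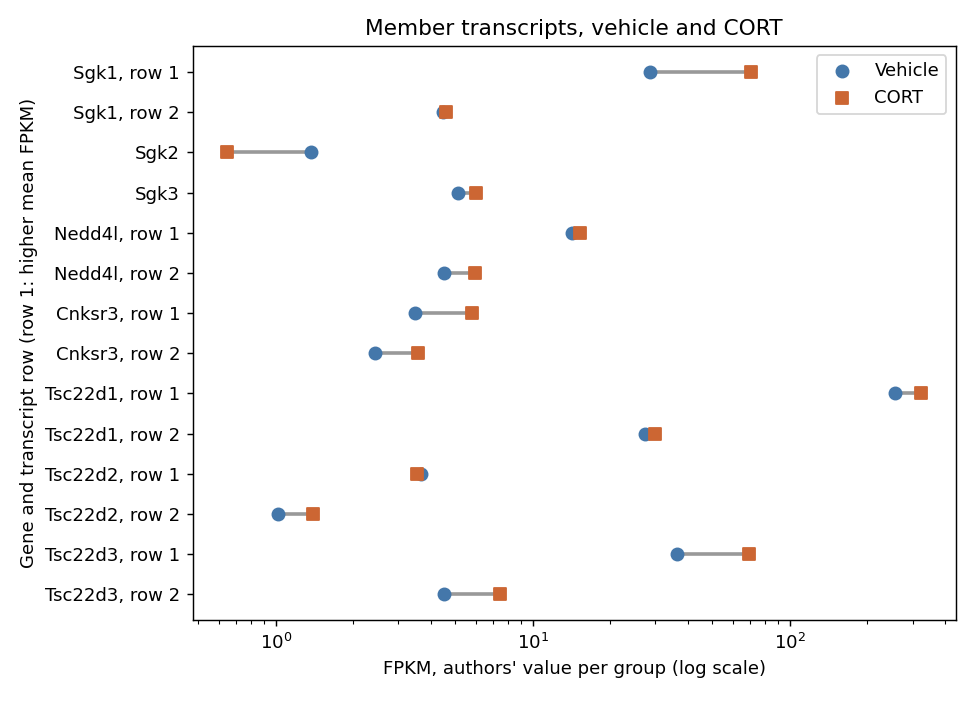
FPKM on a log scale (x axis) of each of the 14 transcripts (y axis), with a circle for the vehicle group and a square for the CORT group, each the authors' single value for 4 rats. The squares of 12 of the 14 rows lie to the right of their circles, among them Sgk1 row 1 (from 28.5 to 70.4 FPKM), both Tsc22d3 rows and both Cnksr3 rows. Those of Sgk2 and Tsc22d2 row 1 lie to the left.

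Among the kinases, the more abundant Sgk1 transcript (ENSRNOT00000016121.5) was at 28.5 FPKM with vehicle and at 70.4 FPKM with CORT. This is a 2.47-fold higher level (log2 fold change 1.31), and 211 of the 16266 transcripts had a larger one. Of the 14863 transcripts with at least 1 FPKM in both groups and a locus longer than 400 bp, a selection made after the data had been seen, 54 had a larger one. The other Sgk1 transcript (ENSRNOT00000083452.1) was at 4.47 FPKM in vehicle rats and 4.60 FPKM in CORT rats (log2 fold change 0.04). Both transcripts have the same locus on chromosome 1 of rn6, from 24185434 to 24302298. By these FPKM the difference between the groups lay in 1 of them, and how reads were shared between both was not tested. The more abundant transcript held 86.4% of the summed Sgk1 FPKM with vehicle and 93.9% with CORT, and the summed level was 32.9 and 75.0 FPKM.

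Sgk3, which carries a lipid-binding domain and is found on endosomes, was at 5.10 FPKM in vehicle rats and 6.03 FPKM in CORT rats. Its log2 fold change was 0.24, and its locus on chromosome 5 lies between 9048613 and 9094616. Sgk2, which is known best from epithelial tissues, was at 1.37 FPKM in vehicle rats and 0.649 FPKM in CORT rats. The CORT value was the lowest level of the set. Sgk2 had a log2 fold change of -1.08, on chromosome 3 between 159368272 and 159384775. With 1 FPKM added to each group, the log2 fold change of Sgk2 was -0.52, which is within 1.5-fold, so its place among the lower transcripts rests on values near 1 FPKM. Of the 3301 transcripts whose vehicle level lay within 2-fold of that of Sgk2, 13.8% were lower with CORT by 1.5-fold or more.

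Set beside its paralogues, the log2 fold change of Sgk1 was larger than that of Sgk3 by 1.07 and than that of Sgk2 by 2.38. For the less abundant Sgk1 transcript the difference to Sgk3 was -0.20. The order of the levels was Sgk1, Sgk3 and Sgk2 in both groups. Sgk1 held 83.6% of the summed FPKM of the 3 kinases with vehicle and 91.8% with CORT, and Sgk3 held 13.0% and 7.38%. The summed level of all 3 was 39.4 FPKM in vehicle rats and 81.6 FPKM in CORT rats.

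**Figure D2:**
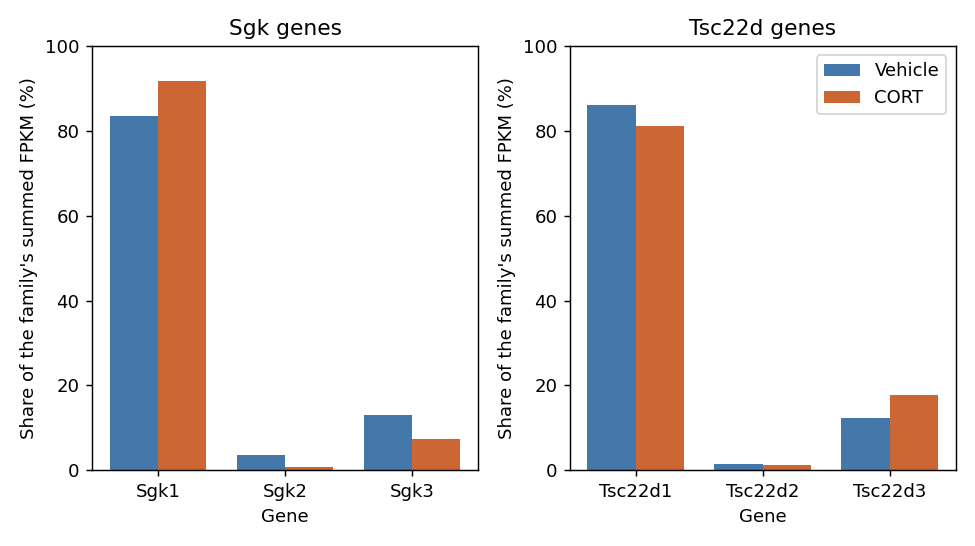
Share of the summed FPKM of the family (y axis, percent) held by each Sgk gene and each Tsc22d gene (x axis), with 1 bar for the vehicle and 1 for the CORT group, over the transcripts of each gene added together. Sgk1 goes from 83.6% to 91.8% of its family and Tsc22d3 from 12.4% to 17.7%, while Tsc22d1 holds most of its family in both groups.

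Nedd4l, the ubiquitin ligase that Sgk1 phosphorylates, was within 1.5-fold in both transcripts. The more abundant (ENSRNOT00000023890.7) was at 14.2 FPKM in vehicle rats and 15.3 FPKM in CORT rats (log2 fold change 0.11). The other (ENSRNOT00000083363.1) was at 4.49 and 5.94 FPKM (log2 fold change 0.40). Their shared locus lies on chromosome 18 between 60392375 and 60719720.

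Cnksr3, the scaffold of the pathway, was higher with CORT from a low level. Its more abundant transcript (ENSRNOT00000024418.7) was at 3.49 FPKM in vehicle rats and 5.81 FPKM in CORT rats, which is 1.66-fold or 0.73 on the log2 scale. The other (ENSRNOT00000082931.1) was at 2.43 and 3.57 FPKM (log2 fold change 0.56), so that unlike at Sgk1 the 2 transcripts had fold changes of similar size. Both lie on chromosome 1 between 43789790 and 43884267. Its paralogue Cnksr2, a scaffold of the postsynaptic density, was at 37.0 FPKM in vehicle rats and 39.6 FPKM in CORT rats, and the log2 fold change of Cnksr3 was larger by 0.64. The less abundant Cnksr2 transcript was at 5.88 and 8.04 FPKM, and its log2 fold change of 0.45 was closer to those of both Cnksr3 transcripts. Cnksr3 was at 0.0943 times the level of Cnksr2 with vehicle and at 0.147 times with CORT. Cnksr1 was not analysed here.

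In the Tsc22 domain family, the more abundant Tsc22d3 transcript (ENSRNOT00000085118.1) was at 36.5 FPKM in vehicle rats and 69.6 FPKM in CORT rats, a 1.91-fold higher level and a log2 fold change of 0.93. The other (ENSRNOT00000087583.1) was at 4.51 and 7.44 FPKM (log2 fold change 0.72). In rn6 the first has a locus on chromosome X from 111884294 to 111887906 and the second a locus of 648 bp from 111942101 to 111942749, and 54195 bp lie between them. In the GRCr8 assembly, RefSeq places 3 starts at Tsc22d3, with 2 of them 959 bp apart and the third, whose window is printed above, 55396 bp from the nearer one. Which start each measured transcript uses was not determined.

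Tsc22d1, named for its induction by TGF-β, was the most abundant gene of the set. Its main transcript (ENSRNOT00000001360.3) was at 257 FPKM in vehicle rats and 323 FPKM in CORT rats (log2 fold change 0.33). In FPKM this transcript had the largest difference of the set, 66.1 FPKM higher with CORT, ahead of 41.9 for Sgk1 and 33.1 for the main transcript of Tsc22d3. Of the 563 transcripts whose vehicle level was within 2-fold of it, itself included, 6 others had a log2 fold change as large. Its second transcript (ENSRNOT00000058206.4) was at 27.2 and 29.9 FPKM (log2 fold change 0.14). Both lie on chromosome 15 between 58554373 and 58658153.

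Tsc22d2 was low in both groups. Its more abundant transcript (ENSRNOT00000015119.6) was at 3.66 FPKM in vehicle rats and 3.55 FPKM in CORT rats (log2 fold change -0.05, and 0.08 when both transcripts were summed). The other (ENSRNOT00000088139.1) was at 1.02 and 1.39 FPKM (log2 fold change 0.44). Their locus is on chromosome 2 between 148607747 and 148655261.

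The log2 fold change of Tsc22d3 was larger than that of Tsc22d1 by 0.60 and than that of Tsc22d2 by 0.98. In level, however, the order stayed Tsc22d1, Tsc22d3 and Tsc22d2 in both groups. Tsc22d1 held 86.2% of the summed FPKM of the 3 genes with vehicle and 81.2% with CORT, and Tsc22d3 held 12.4% and 17.7%. The summed level was 330 FPKM in vehicle rats and 435 FPKM in CORT rats.

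**Figure D3:**
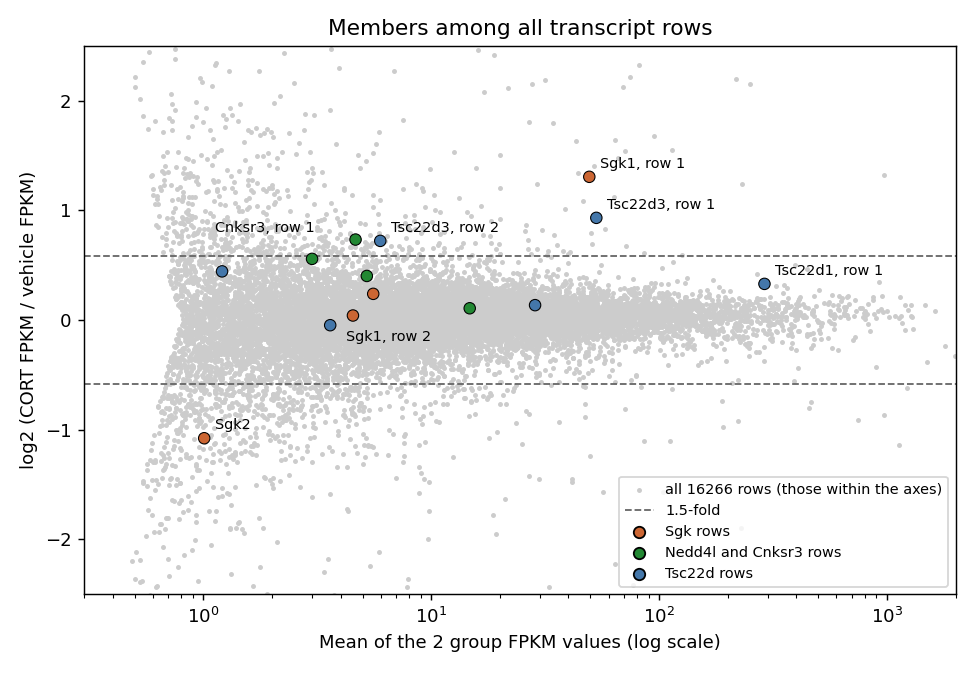
Log2 ratio of CORT over vehicle FPKM (y axis) against the mean of the 2 group values (x axis, log scale) for the transcripts of the table that fall within the axes (grey) and the 14 transcripts of the set (coloured by family), with 1.5-fold as dashed lines. Sgk1 row 1 at 1.31 and Tsc22d3 row 1 at 0.93 lie above most transcripts of similar level, whereas Sgk2 at -1.08 lies where low values scatter widely.

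The transcripts closest to these in both group values were found by their distance on the log2 scale, over the 2 values. For Sgk1 they were 3 small structural RNAs, U6atac, SNORA42 and SCARNA21, at distances of 0.10 to 0.25. For Tsc22d3 they were SNORA40 at 0.07, the amyloid precursor App at 0.13 and Nell2 at 0.17, each as 1 transcript. For Cnksr3 they were transcripts of Ppm1k, Prpf8 and the thyroid hormone deiodinase Dio2, at 0.05 to 0.08. With only 2 values per transcript, many can lie close by.

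The rest of the pathway was described through lists of genes, with 1.5-fold as the limit and each gene taken at its more abundant transcript for the median. Over all transcripts 4.21% were higher and 4.91% lower by that size. The median log2 fold change over all genes, taken in the same way, was 0.02. Of 8 genes upstream of the Sgk kinases, which are PDK1, the subunits of mTOR complex 2 and the mTOR inhibitor Deptor, all 8 were measured, 1 was higher and 0 were lower, with a median log2 fold change of 0.09. The higher one was Prr5, a subunit of mTOR complex 2, at 1.98 FPKM in vehicle rats and 4.12 FPKM in CORT rats (log2 fold change 1.06). Prr5l of the same list, named here after its values were seen, was lower, at 4.08 and 3.14 FPKM (-0.38). The more abundant subunits Mlst8 and Mapkap1 were at -0.03 and 0.10.

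Of 15 substrates and transport targets of the Sgk kinases 12 were measured, as 20 transcripts, and 1 transcript was higher and 0 were lower. That one was the less abundant transcript of Wnk4, a kinase of salt transport, at 0.720 and 1.18 FPKM. The median log2 fold change was 0.10. At the most abundant transcript, Atp1b1, a subunit of the sodium pump, was at 678 and 768 FPKM (0.18), and the kinase substrate Ndrg2 at 418 and 454 FPKM (0.12). Other transcripts of Atp1b1 were at 668 and 677 FPKM (0.02) and at 326 and 463 FPKM (0.50). The sodium channel subunits Scnn1a, Scnn1b and Scnn1g were not analysed here.

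No transcript passed 1.5-fold in either direction among the 8 other Nedd4 family ligases, the 7 proteins of the 14-3-3 family, the 9 measured of 10 Cnksr and Raf pathway genes, or the 5 partners of Tsc22 domain proteins. Their median log2 fold changes were 0.07, 0.04, 0.09 and 0.02. With 4.21% of all transcripts higher and 4.91% lower by that size, such counts are not read as a lack of response. Nedd4 was at -0.04 and Itch at -0.09, and Ywhah and Ywhaz both at 0.08. In the Raf pathway Map2k1 was at 0.07, and the Tsc22 partners Nrbp2 and Nrbp1 were at 0.02 and 0.04. Of 4 corticosteroid receptors and Hsd11b enzymes 3 were measured and 0 passed, with Hsd11b1, which regenerates corticosterone, at 0.02 and the mineralocorticoid receptor Nr3c2 at 0.32. The glucocorticoid receptor Nr3c1, named here after its values were seen, was at 23.2 and 18.3 FPKM (-0.34) in its more abundant transcript and at 9.06 and 8.22 FPKM (-0.14) in the other.

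Of 14 classic glucocorticoid targets from outside the set, 11 were higher and 1 was lower at the more abundant transcript, with a median log2 fold change of 0.85. Sgk1 at 1.31 was exceeded by 1 of the 14, the metabolic kinase Pdk4, which was at 1.39 FPKM in vehicle rats and 8.11 FPKM in CORT rats (2.54). Tsc22d3 at 0.93 was exceeded by 4 of them. Beside Pdk4 these were Nfkbia, the inhibitor of NF-κB (0.99), the transcription factor Klf15 (0.99) and the clock gene Per1 (0.95). Cnksr3 at 0.73 was exceeded by 9, which also included Errfi1 (0.92), Zbtb16 (0.90), the immunophilin Fkbp5 (0.86), Cdkn1a (0.85) and Ddit4 (0.83). Sult1a1 (0.66) and Klf9 (0.60) were past 1.5-fold as well, and Dusp1 (0.55) was not. The lower one was the metallothionein Mt1, at 156 and 52.7 FPKM, and Mt2A was at 70.5 and 49.5 FPKM. The table places this Mt1 transcript on chromosome 17 and another of 2.58 and 2.15 FPKM on chromosome 19 (-0.26). How reads were shared between these loci was not tested. These lists too were written with earlier results of these data known.

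**Figure D4:**
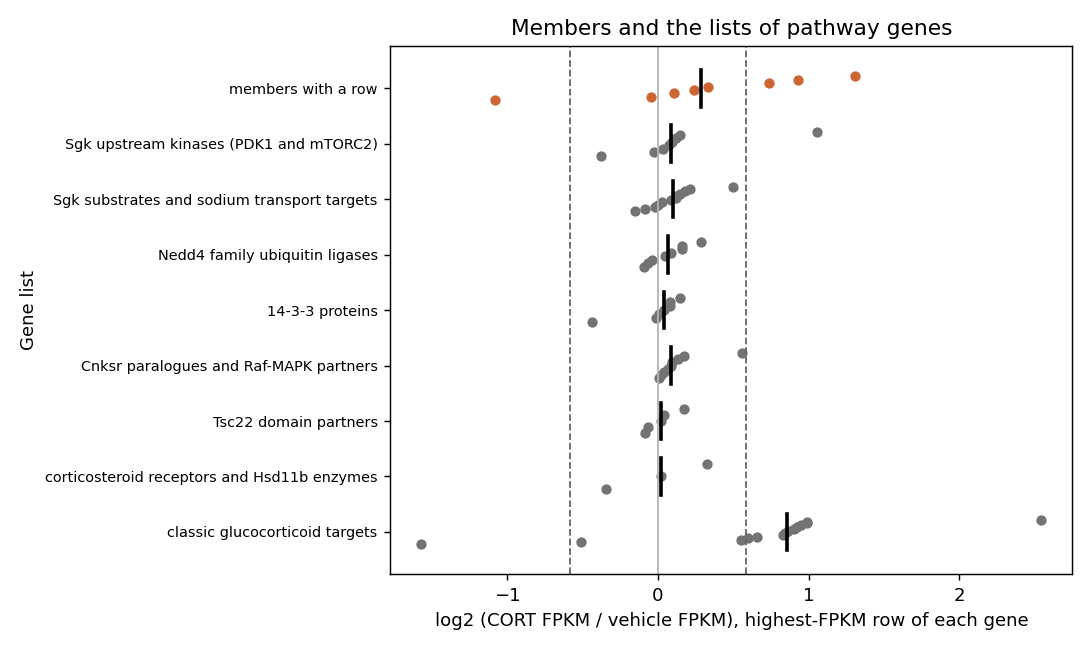
Log2 ratio of CORT over vehicle FPKM (x axis) at the more abundant transcript of each gene, for the 8 measured genes of the set (orange) and the lists of pathway genes (grey), with the median of each list as a black bar and 1.5-fold as dashed lines. The lists around the Sgk and Tsc22 proteins have medians from 0.02 to 0.10, and the classic glucocorticoid targets one of 0.85.

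The hippocampal label was checked against marker genes. Neuronal markers were abundant, with a summed level of 2990 FPKM in vehicle rats and 3155 FPKM in CORT rats over 7 of 7 genes, and 5 of 7 markers of hippocampal neurons were measured, at 298.1 and 298.5 FPKM, with 1 of them, Zbtb20, higher by 1.76-fold from 1.55 FPKM. Genes of other cells differed between the groups, here at the more abundant transcript of each. Over all genes taken in this way 54.2% were higher with CORT, and of all transcripts 4.91% were lower by 1.5-fold. All 7 oligodendrocyte markers were lower with CORT, at 5198 and 4299 FPKM in sum, 1 of them, Opalin, by 1.5-fold, with a median log2 fold change of -0.24. Sgk1, which these cells express among others, was higher in the same comparison, and which cells its level came from was not tested. All 6 microglial markers were lower (median -0.23, sum 236 and 199 FPKM), as were 5 of 6 astrocyte markers (median -0.31, sum 1501 and 1016 FPKM), 2 of them, Gfap and Aldh1l1, by 1.5-fold. The astrocyte sum follows Gfap above all, which was at 970 and 517 FPKM. Slc1a2 was the 1 that was higher, at 159 and 175 FPKM (0.14), and Gja1 was at -0.10 and Aqp4 at -0.51. Less abundant transcripts of Aqp4 and Aldh1l1 were higher, at 0.0126 and 2.55 FPKM and at 0.931 and 3.05 FPKM. The least abundant Mbp transcript was also higher, at 9.45 and 12.8 FPKM (log2 fold change 0.43), which is within 1.5-fold.

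Of markers from around the hippocampus, the 4 measured blood genes, the near-identical Hba1 and Hba2 as well as Hbb and Alas2, were lower by 1.5-fold (sum 1419 and 812 FPKM). So were 4 of 6 markers of thalamus and habenula, Tcf7l2, Gpr151, Chrna3 and Chrnb4 (38.4 and 26.6 FPKM), 2 of 5 of meninges, Col1a1 and Slc6a13 (99.6 and 77.9 FPKM), and 0 of 5 of choroid plexus (6719 and 6709 FPKM). Of endothelial markers 4 of 5 were lower, 0 of them by 1.5-fold at the more abundant transcript (81.5 and 69.0 FPKM). Over all transcripts 4.91% were lower by that size. Less abundant transcripts of Slco1a4 and Tac1 were also lower by that size. No marker was listed at 0, but neither was any other transcript, so this does not show which cells were present. Among the genes of the set Sgk2 was lower in the same direction as these markers, and their part in its value, or in that of any gene of the set, was not tested. In whole tissue, fewer cells of a type and less RNA per cell cannot be told apart.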

How the data were processed

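RNAseq of whole hippocampus was measured in 8 ADX rats, 4 per group. Per the submitters' processing notes, the authors used CASAVA 1.8.2, TopHat2 2.0.10 with the rn6 genome, and Cuffdiff 2.2.0. The authors deposited FPKM per Ensembl transcript, as 1 value for each group, with geometric normalization and corrections for multiply mapped reads, sequence bias and effective length, and required at least 10 alignments. The deposited log2 fold changes, test statistics, p-values and q-values of the authors' own comparison were not used. Depth per library is unknown.

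The log2 ratio of CORT over vehicle FPKM was computed here without a pseudocount for all 16266 transcripts, and 1.5-fold was the limit. CuffDiff, the test of the study, needs reads per rat and was not run. No FPKM was 0. Locus coordinates are as the table gives them. The set, the lists and the limit were chosen with earlier results of these data known. Named genes were all members, list genes past the limit with at least 1 FPKM in a group, up to 2 more per list with the highest FPKM, and 3 nearest transcripts for Sgk1, Tsc22d3 and Cnksr3. A few list genes under this rule are not reported here. Each gene in a pair was taken at its more abundant transcript. Gene symbols were matched exactly. The code was tested on simulated data. Python 3.11.15, numpy 2.4.6, pandas 2.3.3 and matplotlib 3.10.9 were used.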

Additional observations from a re-analysis of the deposited data

How the results depend on the processing

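The counts of 4 higher and 1 lower transcript were the same after adding 0.1 FPKM, centring on the median, scaling to the total over loci longer than 400 bp, and without transcripts under 1 FPKM in both groups. Of all transcripts 3.97% to 4.06% were higher and 4.61% to 5.21% lower after adding 0.1 FPKM, centring or scaling. When the transcripts of a gene were summed, 3 genes were higher and 1 lower. Of all 13272 genes summed in this way, 1.77% were higher and 3.75% lower. At a limit of 2-fold 1 transcript was higher, as were 1.92% of all transcripts, and at a limit midway between no difference and 1.5-fold 8 were, as were 9.54% of all. No transcript was lower (0) after adding 1 FPKM or when each group had to reach 1 FPKM, since Sgk2 was the lower one. After adding 1 FPKM 2.35% of all transcripts were lower. Of those that reached 1 FPKM in each group, 2.87% were lower. The difference between Sgk1 and Sgk2 was 1.80 after adding 1 FPKM, 2.28 after adding 0.1 FPKM, 2.26 with summed transcripts and 1.12 with the less abundant Sgk1 transcript. That between Sgk1 and Sgk3 was 0.95 with summed transcripts and reversed to -0.20 with the less abundant Sgk1 transcript. That between Tsc22d3 and Tsc22d1 was 0.39 with the less abundant Tsc22d3 transcript. That between Tsc22d3 and Tsc22d2 was 0.83 with summed transcripts and 0.77 with the less abundant one. That between Cnksr3 and Cnksr2 was 0.51 after adding 1 FPKM, 0.52 with summed transcripts and 0.46 with the less abundant one. Other differences between paralogues moved by under 0.1, the size taken as unchanged since no spread between rats is known. Of the 14 log2 fold changes, 5 moved by more than that after adding 1 FPKM and 1 after adding 0.1 FPKM. Leaving out single rats could not be done with 1 value per group. No paired analysis was possible because a value per group holds no pairs of rats. The cause of these shifts was not tested, beyond low FPKM for Sgk2. FPKM without a depth gives no limit of detection, which bears most on Sgk2, Tsc22d2 and Cnksr3.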

Other observations

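Genes beside the members on the chromosome were listed, the nearest 2 on each side of each locus. Of 32 such genes, 0 were higher and 1, Mybl1 beside Sgk3, was lower by 1.5-fold or more, and their median log2 fold change was -0.01. Over all transcripts 4.21% were higher and 4.91% lower by that size, so nothing is read from these counts. On the side of Sgk1 with lower coordinates, Slc2a12, a glucose transporter 129061 bp away, was at 4.61 FPKM in vehicle rats and 4.65 FPKM in CORT rats, and Tbpl1 beyond it was at 49.5 and 48.4 FPKM. Beside Tsc22d3, Prps1 was at 51.1 and 53.3 FPKM and Mid2 at 5.75 and 5.72 FPKM. Beside Cnksr3, Ipcef1 was at 1.97 and 2.83 FPKM (log2 fold change 0.52), the highest of the 32. These neighbours were listed after the data had been seen, and no test was made.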
